A study of Mus musculus with 4 samples.

Results

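The CCAAT/enhancer binding proteins (C/EBPs) were measured in immortalized mouse brown preadipocytes, the cells that give rise to brown fat, with and without the histone H3 lysine 9 methyltransferase G9a. The 6 gene names Cebpa, Cebpb, Cebpd, Cebpg, Cebpz and Ddit3 were looked for among probe sets that carry exactly 1 gene symbol in the platform annotation. This found 10 probe sets of 5 genes among 34945 probe sets of 18193 genes with 1 symbol and 45037 probe sets in all. Cebpb, Cebpd and Ddit3 had 2 probe sets each, Cebpg had 3 and Cebpa had 1. For Cebpz the search found 0, and this gene was not analysed here. The study hybridized total RNA to 4 Affymetrix 3′ expression arrays, 2 for each of 2 groups, to ask how loss of G9a alters expression in these cells. All cells were of a mixed C57/BL6-129 strain and carried floxed G9a alleles (G9af/f). The Vec arrays hold vector-treated cells, labelled wild type, and the Cre arrays hold Cre-treated cells, labelled G9a knock out. The floxed background, the immortalization and the culture medium are thus common to both groups. The labels number the arrays of a group 1 and 2 without naming separate cultures or clones. P-values thus measure only the spread between these arrays, which may in part be technical. Within a group that spread also holds the difference between the numbers, in sex-linked transcripts among others, that is given below.

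C/EBPs are basic leucine zipper (bZIP) factors that bind DNA as dimers, with themselves, with each other and with other bZIP factors such as ATF4. In the classical order of fat cell differentiation, hormonal and cAMP signals first induce C/EBPβ and C/EBPδ, which then turn on PPARγ and C/EBPα, and these maintain the adipocyte program. C/EBPγ lacks a strong activation domain and acts largely as a dimer partner, while DDIT3 (CHOP) is the stress-induced member whose dimers do not bind the classical C/EBP site. Cebpz shares the name only, since it encodes a nucleolar CCAAT-binding factor outside the bZIP family.

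The arrays of number 1 and number 2 stood apart before genotype was considered. The X-linked transcript Xist read 11050 in Vec-1 and 9810 in Cre-1 against 41.8 in Vec-2 and 58 in Cre-2, and the Y-linked Eif2s3y read 141.1 and 227.6 in number 1 against 1127 and 1265 in number 2. Zic1, a marker of brown fat precursors, read 49.1 in Vec-1 and 20.1 in Cre-1 but 935.9 in Vec-2 and 797.6 in Cre-2. Lhx8, another such marker, was likewise low in number 1 (9.9 in Vec-1, 24.6 in Cre-1) and high in number 2 (482.5 in Vec-2, 444.2 in Cre-2). Of 8 brown fat markers 8 were listed and 4 tested. With the replicate number as a block, limma called these 2 higher in number 2 and 0 lower, against 8.46% and 8.26% of all genes. Dio2 read 62.8 and 157.9 in number 1 but 43.5 and 52.5 in number 2 (Vec, Cre). Elovl3 and Ppargc1a were also lower in number 2, and Prdm16, Ucp1 and Cidea did not part the numbers. Of 8 preadipocyte markers 7 were listed and 6 tested, and their levels differed widely. Pdgfrb (3122.6 to 5668.6), Cd24a (2186.2 to 3750.1) and Dlk1 (1689.7 to 5421.1) were bright in every array, and Thy1 read 436.8 to 2973.5. Pdgfra (59.1 to 247.5) and Cd34 (68.7 to 151.2) were dim, and Zfp423 (2.1 to 3.8) lay near the bottom of each array. Of the 6 preadipocyte markers tested, 4 were lower in Cre within both numbers and 1 was higher in both. Over all tested genes the shares were 30.2% and 32.8%. Cebpa, Cebpb and Cebpd were also lower within both numbers by their brightest probe sets. The 6 markers had a median log2 difference of -0.47. Summed signals of the 7 listed were 14440 and 15250 in Vec and 11130 and 14060 in Cre. Limma called 0 of the 6 in either model, with 0 at an unadjusted p under 0.05 without the block and 4 with it. The 4 included Pdgfrb, which was higher in Cre, and did not include Cd34. At that blocked, unadjusted threshold 7.61% of all tested probe sets passed lower in Cre and 8.25% higher. Within numbers 1 and 2, Dlk1 differed by -1.72 and -0.11, Pdgfra by -1.25 and -0.41, Cd24a by -0.27 and -0.74 and Cd34 by -0.67 and -0.21. Pdgfrb was higher in Cre within both numbers (0.34 and 0.47), and Thy1 changed sign between them (0.28 and -0.24). Of 6 mature fat markers 4 were listed, with sums of 127.3 and 71.5 in Vec and 158.9 and 79.1 in Cre. Adipoq (3.9 to 16.7), Lep (2.1 to 11.5) and Cidec (3.7 to 15.9) were dim, and Retn alone passed the level filter, at 48.1 to 128.2. Ucp1, the uncoupling protein gene of brown fat, read 6 to 21.8, while the adipocyte gene Fabp4 read 111.8 to 1119.7. Of 9 macrophage and leukocyte markers 8 were listed and 3 tested, with summed signals of 847.5 and 816 in Vec and 1062 and 797.9 in Cre, and Ptprc read 2.9 to 11.9. All 5 endothelial markers lay below the level filter, with sums of 138.2 and 79.8 in Vec and 325.2 and 155.5 in Cre. The muscle markers, with 3 of 6 tested, summed to 3176 and 1512 in Vec and 6267 and 8155 in Cre. Most of this was Tnnt2, at 2825.3 and 1320 in Vec and 5640.7 and 7677.6 in Cre. Limma called Tnnt2 and Acta1 higher in Cre with the block only (adjusted p = 0.00334 and 0.00722), where 3.25% of all genes were called higher. Myod1, Myf5 and Myog read 3.2 to 40.3, lay below the level filter and each changed sign between the numbers. The part of these markers in the C/EBP values was not tested. Ehmt2, the gene of G9a, read 2681.8 and 2688.1 in Vec and 953.1 and 912 in Cre (-1.49 ± 0.20; limma adjusted p = 0.227, and 0.000281 with the replicate number as a block), and where its probes lie relative to the deleted part is not given in the labels. Array medians were 50.6 to 78 signal units, and 4 arrays limit the precision of every value.

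The promoters of Cebpb and Cebpa are shown beside that of Cebpg. By the brightest probe set, Cebpb and Cebpa read lower in Cre within both replicate numbers and Cebpg did not. Ddit3 was also lower within both (-0.049 and -0.45), and its motifs are given without the sequence. A link between these motifs and the Cre differences was not tested. RefSeq sequences of build GRCm38.p6 were matched for 4 of the 6 names (Cebpa, Cebpb, Cebpg and Ddit3), and the 250 bases before the transcription start are printed 5′ to 3′ on the gene's strand. They lie at chr2:167688665-167688914 (plus strand) for Cebpb, at chr7:35119043-35119292 (plus strand) for Cebpa and at chr7:35056567-35056816 (minus strand) for Cebpg. Capitals mark, on either strand, the motif TGACG, which is the core of a cAMP response element, the core promoter motif TATAAA and the promoter motif CCAAT.
Cebpb promoter: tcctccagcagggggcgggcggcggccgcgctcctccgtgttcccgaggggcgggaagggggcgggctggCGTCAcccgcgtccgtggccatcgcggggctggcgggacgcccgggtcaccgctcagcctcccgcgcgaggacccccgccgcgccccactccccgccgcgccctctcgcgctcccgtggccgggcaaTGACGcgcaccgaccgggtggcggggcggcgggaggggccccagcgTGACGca
Cebpa promoter: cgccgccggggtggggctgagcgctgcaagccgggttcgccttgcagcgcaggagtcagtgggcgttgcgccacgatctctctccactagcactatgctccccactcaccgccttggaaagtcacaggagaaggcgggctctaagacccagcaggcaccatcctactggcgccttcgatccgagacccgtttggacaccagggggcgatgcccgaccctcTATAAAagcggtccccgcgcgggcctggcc
Cebpg promoter: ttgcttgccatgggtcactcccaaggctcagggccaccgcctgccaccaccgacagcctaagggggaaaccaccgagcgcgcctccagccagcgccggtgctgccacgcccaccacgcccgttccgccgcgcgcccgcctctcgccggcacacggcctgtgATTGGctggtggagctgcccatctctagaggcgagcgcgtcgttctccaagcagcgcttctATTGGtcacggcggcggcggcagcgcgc
The Cebpb window held TGACG 3 times, beginning at positions -53 and -7 on the gene's strand and, as CGTCA, at -180. The Cebpa window held a TATAAA at -30, and the Cebpg window held CCAAT on the opposite strand at -89 and -28. The Ddit3 window (chr10:127290543-127290792, plus strand) held CCAAT on the opposite strand at -77 and the AP-1 motif TGACTCA at -242. Over all 32851 windows of this length TGACG was present in 17.8%, TATAAA in 12.4%, CCAAT in 33.8% and TGACTCA in 4.46%. None of the 4 windows held the full element TGACGTCA (1.55% of all windows, and itself a TGACG match), the C/EBP consensus TTNCNNAA (36.8%), its palindromic form TTGCGCAA (0.164%, and itself a TTNCNNAA match) or the C/EBP-ATF composite TGATGNAAT (0.816%). These searches took exact matches only, so a binding site that departs from the motif would be missed. GC content was 81.6% for Cebpb, 66.4% for Cebpa, 70.8% for Cebpg and 64.8% for Ddit3, against a median of 52.4%. Cebpg and Cebpa are close neighbours on chromosome 7, with only the gene models Gm45095 and Gm35611 between them.

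Cebpb gave the highest signal of the family in all 4 arrays and Cebpa the lowest. By the brightest probe set of each gene, the order of mean signals was Cebpb, Cebpd, Ddit3, Cebpg and Cebpa. Signals of different probe sets also depend on their probes, so this is an order of signals and not of transcript numbers. Cebpb lay between the 91.9th and the 97.4th percentile of all probe sets, and Cebpd between the 86.5th and the 96th. Ddit3 (87.2 to 90.1) and Cebpg (84.1 to 89) were also among the brighter probe sets of each array, whereas Cebpa lay near the middle, from the 46.5th to the 61.5th percentile. The middle places changed with the replicate number. Cebpd exceeded Ddit3 by 1.40 (Vec) and 0.86 (Cre) on the log2 scale in number 1, and lay 0.21 and 0.10 below it in number 2, as the differences of -0.21 and -0.10 show. Ddit3 and Cebpg differed by less than 0.8 in every array, with Cebpg minus Ddit3 at -0.10 and -0.79 in Vec and 0.015 and -0.42 in Cre. Cebpd and Ddit3, and Ddit3 and Cebpg, were therefore not parted beyond the spread over the arrays (SDs of 0.78 and 0.36 around mean differences of 0.49 and 0.32), while Cebpb exceeded Cebpd by 0.72 ± 0.20 (SD over 4 arrays).

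**Figure D1:**
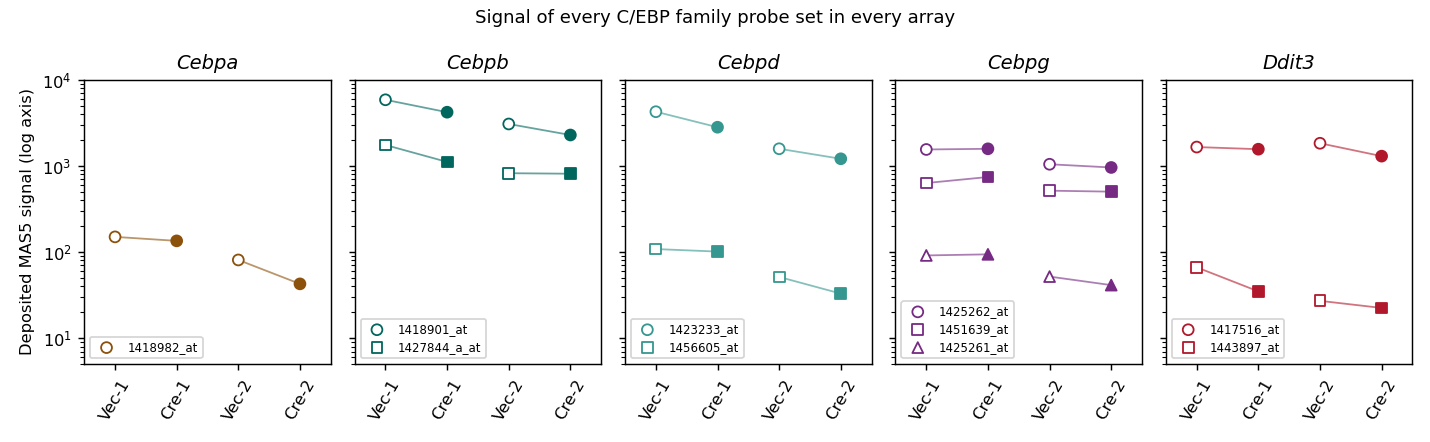
Deposited MAS5 signal (log axis) of all 10 family probe sets in the arrays Vec-1, Cre-1, Vec-2 and Cre-2; open symbols are Vec, filled symbols are Cre, lines join the arrays of a replicate number and each marker shape is 1 probe set. Cebpb reads from 2284.5 to 5852.7 and Cebpa from 42.8 to 150.2, and the number 2 arrays lie below the number 1 arrays for every probe set of Cebpa, Cebpb, Cebpd and Cebpg.

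**Figure D2:**
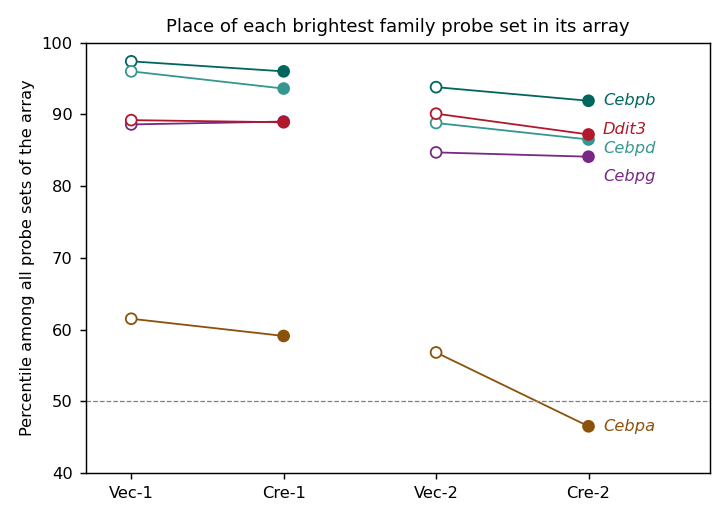
Percentile of the brightest probe set of each gene among the 45037 probe sets of its array; open circles are Vec, filled circles are Cre, lines join the arrays of a replicate number and the dashed line is the 50th percentile. Cebpd lies above Ddit3 in number 1 and below it in number 2, and Cebpa lies at the 46.5th percentile in Cre-2.

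Cebpb, which encodes the early adipogenic factor C/EBPβ, read 5852.7 (Vec) and 4200.3 (Cre) in number 1 and 3066.2 and 2284.5 in number 2. Cre was the lower array of each pair, with differences of -28.2% and -25.5% in the deposited signal, but the groups overlapped because Vec-2 read below Cre-1. In a bulk sample, fewer cells of a type and less RNA per cell cannot be told apart. On quantile normalized log2(signal + 16) values, a scale that understates the change of dim genes, Cre minus Vec was -0.50 in number 1 and -0.40 in number 2. The model without the replicate number gave -0.45 ± 0.43 (SE, n = 2 against 2; 95% interval -1.50 to 0.61; limma adjusted p = 0.999). With the number as a block the SE was 0.11 and the interval -0.70 to -0.20, and the adjusted p of 0.0661 still missed 0.05. Under the authors' scaling without quantile normalization the blocked adjusted p was 0.0431, so there, and under no other setting tried, Cebpb fell. The second probe set (1427844_a_at) read 1749 and 822.9 in Vec and 1112.6 and 811.9 in Cre. Its pairs parted, with -0.63 in number 1 and 0.011 in number 2, and its mean was -0.31 ± 0.39 (adjusted p = 0.999, and 0.458 with the block). Leaving out Vec-1 or Cre-2, which unbalances the numbers, turned the brighter probe set to 0.077 and 0.025.

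Cebpd, the gene of C/EBPδ, which acts with C/EBPβ at the start of differentiation, read 4256 (Vec) and 2811.8 (Cre) in number 1 and 1581.7 and 1210.2 in number 2. Cre was again lower within each number, with differences of -33.9% and -23.5%, and Vec-2 lay below Cre-1. The log2 differences were -0.60 and -0.33, with a mean of -0.46 ± 0.58 (95% interval -1.87 to 0.94; limma adjusted p = 0.999). With the block the SE was 0.14, the interval -0.77 to -0.16 and the adjusted p 0.112. A dim second probe set (1456605_at) read 108.5 and 51.5 in Vec and 101.4 and 33 in Cre, with differences of -0.21 and -0.51. Without Vec-1 the brighter probe set gave 0.27 and without Cre-2 it gave 0.14.

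Cebpa, the gene of C/EBPα, which sustains the differentiated state, read 150.2 (Vec) and 135 (Cre) in number 1 and 81.1 and 42.8 in number 2. Cre was lower within each number, with differences of -10.1% and -47.2%, so the pairs were far apart in size. The log2 differences were -0.23 and -0.76, with a mean of -0.49 ± 0.41 (95% interval -1.48 to 0.50; limma adjusted p = 0.999, and 0.414 with the block). At this level the added constant matters, and the mean was -0.59 with 1 and -0.33 with 64 in place of 16. Cre-2 was its lowest array, and the difference was -0.0031 without it and -0.26 without Vec-1.

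Cebpg, the gene of the partner subunit C/EBPγ, read 1551.5 (Vec) and 1579.8 (Cre) in number 1 and 1045.5 and 959.3 in number 2. The pairs went opposite ways by small amounts, 0.066 and -0.079, with a mean of -0.0069 ± 0.33 (95% interval -0.81 to 0.79; limma adjusted p = 0.999). With the block the interval of this probe set narrowed to -0.34 to 0.33, which does not show that there is no difference. The probe set 1451639_at read 633 and 516.2 in Vec and 743.5 and 502.8 in Cre, and 1425261_at read 91.5 and 52 in Vec and 94.2 and 41.4 in Cre. Their means were 0.11 ± 0.27 and -0.20 ± 0.33, so the 3 probe sets did not share a sign. The blocked intervals of these other probe sets were wider, at -0.29 to 0.50 and -0.83 to 0.43. Without Vec-1 and without Cre-2 the brightest gave 0.27 and 0.33.

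Ddit3, the gene of the stress factor CHOP, read 1655.7 (Vec) and 1563.3 (Cre) in number 1 and 1831.9 and 1298.8 in number 2. Both Cre arrays lay below both Vec arrays, and the numbers did not separate. The log2 differences were -0.049 and -0.45, with a mean of -0.25 ± 0.22 (95% interval -0.78 to 0.29; limma adjusted p = 0.999, and 0.484 with the block). The second probe set (1443897_at) lay below the level filter and read 66.6 and 27.2 in Vec and 35 and 22.5 in Cre. In a model without the filter it gave -0.54 ± 0.35.

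**Figure D3:**
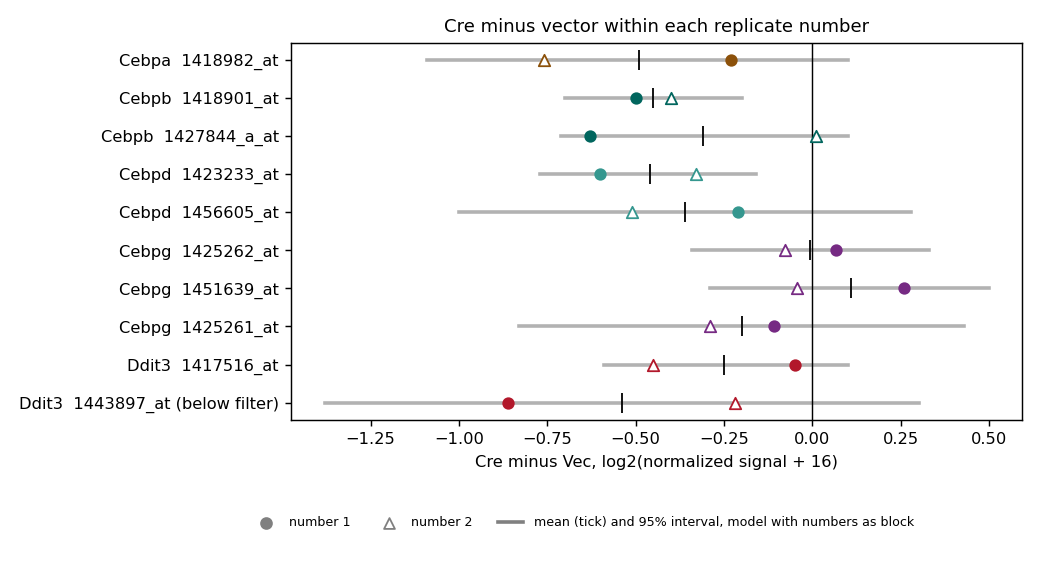
Cre minus Vec on the log2(normalized signal + 16) scale for each family probe set (rows), with filled circles for number 1 and open triangles for number 2; ticks and grey bars are the mean and 95% interval of the limma model with the number as a block. The bars of the brightest Cebpb (-0.70 to -0.20) and Cebpd (-0.77 to -0.16) probe sets stay below 0 before adjustment over all probe sets, and the other bars cross 0.

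Across the family, 9 of the 10 probe sets passed the level filter, and none was called in either model. Without the block 0 family probe sets had an adjusted p under 0.05 and 0 had an unadjusted p under 0.05. Over all tested probe sets limma called 0% lower and 0.00888% higher in Cre, and 1.42% and 2.71% had an unadjusted p under 0.05. With the block 0 passed after adjustment and 2, the brightest of Cebpb and of Cebpd, had an unadjusted p under 0.05, where 0.853% of all probe sets were called lower and 2.29% higher and 7.61% and 8.25% passed without adjustment. With 2 arrays a group and no pairing, 0.333 is the smallest two-sided p that an exact permutation test can reach. This floor does not apply to arrays paired by number. Of the 9 tested, 6 were lower in Cre within both numbers, 0 were higher in both and 3 differed in sign. Of all tested probe sets 33.2% were lower in both and 27.9% higher. The 9 probe sets are repeated readings of 5 genes. By the brightest probe set, 4 of the 5 genes were lower within both numbers and 0 higher, against 30.2% and 32.8% of all genes. Cre was lower by at least 0.3 within both numbers for 2 of the 9 (the brightest of Cebpb and of Cebpd), against 6.8% of all. The groups did not overlap for 1 of the 9 (Ddit3), where 15.8% of all probe sets were lower in Cre without overlap. The median difference was -0.31 over the 9 and -0.023 over all tested probe sets. By the brightest probe set, 5.69% of all probe sets had a lower mean difference than Cebpa, 6.6% than Cebpd, 7.21% than Cebpb, 20.4% than Ddit3 and 52.5% than Cebpg. Cebpa, Cebpb, Cebpd and Ddit3 kept negative means under the authors' scaling (-0.43, -0.45, -0.49 and -0.29) and under median centring (-0.54, -0.56, -0.60 and -0.39), where centring itself moved the median of tested probe sets to -0.17 in number 1. Set against Cebpg on the same array, Cebpb changed by -0.56 and -0.32 and Cebpd by -0.66 and -0.25 in numbers 1 and 2, so the log2 distance of both to Cebpg was smaller in each Cre array. The brightest Cebpg probe set itself had a mean difference of -0.0069, with a blocked interval of -0.34 to 0.33. Against Ddit3 the changes differed in sign between the numbers, at -0.45 and 0.051 for Cebpb and -0.55 and 0.12 for Cebpd. Cebpa minus Cebpb (0.27 and -0.36) and Cebpa minus Cebpd (0.37 and -0.42) changed sign as well.

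The replicate number parted the family more widely than Cre did. The comparison of the numbers was added after the values were seen, and it sets Vec-2 and Cre-2 against Vec-1 and Cre-1 in the model with both terms. In number 2 Cebpd fell by 1.34 ± 0.14 on the log2 scale (limma adjusted p = 0.000352) and Cebpb fell by 1.0 ± 0.11 (adjusted p = 0.000624), which were 2.89 and 2.22 times the size of their Cre differences. Median centring, which moves the median of all tested probe sets to 0.27, gave -0.92 and -0.51, both still called. Cebpg fell by 0.62 ± 0.15 (adjusted p = 0.0236), and so did the second Cebpb probe set, by 0.73 ± 0.18 (adjusted p = 0.0249). Cebpa differed by -0.72 ± 0.27 and did not pass (adjusted p = 0.0985), though it passed under the authors' scaling (-1.07, limma adjusted p = 0.0139). That scaling put the median of all tested probe sets at -0.12. Under it the array medians were 50.6 (Vec) and 52.5 (Cre) in number 2 against 67.2 and 78 in number 1, and Cebpa lay near the middle of the arrays. The Cebpg call was lost with median centring (-0.25; adjusted p = 0.291) and without the level filter (adjusted p = 0.0695). Ddit3 did not follow, at -0.054 ± 0.16 (adjusted p = 0.848), and median centring turned it to 0.33. In all, 4 of the 9 probe sets were called lower in number 2 and 0 higher, against 7.6% and 7.39% of all tested probe sets. By the brightest probe set, 3 of the 5 genes were called lower and 0 higher, against 8.26% and 8.46% of all genes. The numbers did not overlap, with number 2 lower, for 8 of the 9, against 24.6% of all. The median over the 9 was -0.69, and over all tested probe sets 0.015. The labels do not say what the number stands for, and the number cannot be told apart from the difference in sex-linked transcripts, Zic1 and Lhx8.

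**Figure D4:**
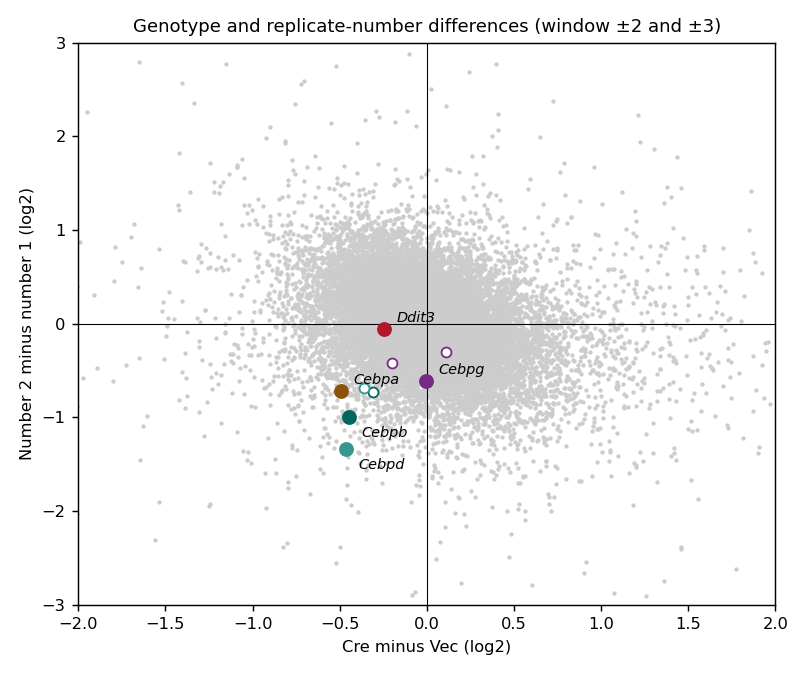
Cre minus Vec (horizontal, log2) and number 2 minus number 1 (vertical, log2) for all tested probe sets (grey) and the family (coloured; filled for the brightest probe set of a gene, open for others); 81 grey probe sets lie outside the window. Cebpa, Cebpb and Cebpd lie at the lower left, at -0.49 to -0.45 on the horizontal and -0.72 to -1.34 on the vertical axis, while Cebpg is displaced downward only and Ddit3 lies near 0 on the vertical axis.

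Profiles over the 4 arrays were compared by the Euclidean distance between normalized log2 values centred on each gene's mean, over 11078 other genes. With 4 arrays many profiles lie close by, and the distances are a description. Nearest to Cebpb were Zfp839, Clmp and Hivep2, at distances of 0.196, 0.218 and 0.22 where the median gene lay at 1.17. Cebpd lay at 0.35 from Cebpb and was its 28th nearest gene, and Cebpb was the 12th nearest to Cebpd. Nearest to Cebpd were Pcdhb21 (0.082), the zinc finger gene Zfp503 (0.177) and the adrenomedullin gene Adm (0.178), against a median of 1.48. Adm, for example, read 722.4 and 236.9 in Vec and 553.5 and 202.9 in Cre, with both number 2 arrays low. Nearest to Cebpa was Egr2 (0.111; median 1.01), the zinc finger factor Krox20, which acts upstream of Cebpb in adipogenesis. Egr2 read 281.4 and 178.2 in Vec and 239 and 89.9 in Cre, lowest in Cre-2 as Cebpa was, and Asphd2 (0.124) and Ptprs (0.146) followed. Nearest to Cebpg were Klf13 (0.032), Lrrfip1 (0.053) and Ddx17 (0.061), and nearest to Ddit3 were Gdpd1 (0.026), Foxc1 (0.031) and Rpgrip1 (0.05). The medians were 0.73 for Cebpg and 0.53 for Ddit3, whose own profiles are flatter.

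Target genes of C/EBPs in fat cells had a positive median difference. Of 16 adipogenic target names, 14 had a probe set and 7 were tested. Their median difference was 0.27, against 0.0073 over all 11079 tested genes, and 5 of the 7 were higher in Cre within both numbers, where 32.8% of all genes were, and 1 was lower in both, against 30.2%. In limma 0 passed without the block, with 1 at an unadjusted p under 0.05. With the block 1 rose and 0 fell, against 3.25% and 0.984% of all genes. That gene was Fabp4, a fatty acid carrier of adipocytes, at 185.8 and 111.8 in Vec and 907.9 and 1119.7 in Cre (2.65 ± 0.27; adjusted p = 0.145, and 0.000104 with the block). Insr, the insulin receptor gene, differed by 0.34 ± 0.29 and Slc2a4, the insulin-responsive glucose transporter gene, by 0.42 ± 0.39. Lpl, the lipoprotein lipase gene, differed by 0.27 ± 0.49. With the block the limma adjusted p-values were 0.443 for Insr, 0.506 for Slc2a4 and 0.6 for Lpl. Pparg, on which C/EBPβ and C/EBPδ act in differentiation, read 111 and 252.2 in Vec and 131.7 and 348.8 in Cre, 0.13 and 0.39 higher within the numbers (0.26 ± 0.64; adjusted p = 0.999). Between the numbers Pparg rose by 1.46 (adjusted p = 0.00236), opposite to the fall of Cebpb and Cebpd.

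Factors that switch Cebpb and Cebpd on or restrain fat cell fate were mixed. Of 20 such names, kinases among them, 18 had a probe set and 17 were tested, with a median of -0.025. Without the block 0 passed and 2 had an unadjusted p under 0.05. With the block 0 rose and 2 fell, against 3.25% and 0.984% of all genes: Zfp521, a repressor of adipocyte commitment, and Nr4a1, an orphan nuclear receptor induced by cAMP. Zfp521 read 415.4 and 279.8 in Vec and 227.2 and 141.5 in Cre (-0.91 ± 0.27; adjusted p = 0.865, and 0.0352 with the block). Nr4a1 read 1091 and 568.7 in Vec and 704.4 and 289.1 in Cre (-0.76 ± 0.46; adjusted p = 0.999, and 0.0469 with the block). Prdm16, the brown fat regulator that partners with C/EBPβ, differed by 0.89 ± 0.30. Klf5, a factor induced by C/EBPβ and C/EBPδ, differed by -0.59 ± 0.28 and the inhibitor Id2 by 0.63 ± 0.32. With the block the limma adjusted p-values were 0.11 for Prdm16, 0.076 for Klf5 and 0.0693 for Id2. Creb1, the cAMP response factor, read 1165.7 and 739.7 in Vec and 1302.6 and 832.8 in Cre, a difference of 0.19 ± 0.33. Klf4, which acts with Krox20 on Cebpb and is named here after its values were seen, read 1207.6 and 310.6 in Vec and 512.3 and 249.4 in Cre, with differences of -1.23 and -0.32. Its mean was -0.78 ± 0.60 (adjusted p = 0.999, and 0.107 with the block).

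The bZIP partners and cofactors of the family gave no call. Of 26 names 23 had a probe set and 21 were tested, with a median of -0.12, and Cebpe, the myeloid member of the family, was not analysed here. Limma called 0 of them in either model, with 0 at an unadjusted p under 0.05 without the block and 6, of both signs, with it. Of all tested probe sets 7.61% passed that blocked threshold lower in Cre and 8.25% higher. Without the block the smallest p-values belonged to the acetyltransferase gene Ep300 (-0.44 ± 0.28) and the circadian factor Dbp (0.67 ± 0.56). Batf2 (0.34 ± 0.30) and Junb (0.43 ± 0.40) came next. Between the numbers 8 of the 21 fell in number 2 and 2 rose, against 8.26% and 8.46% of all genes. Among the 8 were the AP-1 subunits Fos (-1.35), Fosl2 (-1.15), Junb (-0.84), Jund (-0.59) and Jun (-0.54), named after their values were seen, while Fosl1 rose by 0.84.

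The integrated stress response, the translation-control pathway that raises ATF4 and through it Ddit3, had 24 of 25 names tested and a median of 0.19. Neither Ddit3 nor Atf4 was called in either model. Atf4 read 8172.1 and 11840.2 in Vec and 8512.2 and 10480.6 in Cre (-0.12 ± 0.17; adjusted p = 0.999). Without the block 0 passed and 1 had an unadjusted p under 0.05. With the block 2 rose and 0 fell, against 3.25% and 0.984% of all genes: Ddit4, an inhibitor of mTORC1 signalling, and the stress protein gene Nupr1. Ddit4 read 2957.3 and 1201.4 in Vec and 4493.4 and 3252.9 in Cre (1.01 ± 0.45; adjusted p = 0.999, and 0.0092 with the block). Nupr1 read 2463.1 and 1381.2 in Vec and 4830.2 and 2440.9 in Cre (0.91 ± 0.43; adjusted p = 0.999, and 0.00374 with the block). Psat1, a serine synthesis gene controlled by ATF4, differed by -0.37 ± 0.12 and the chaperone gene Dnajb9 by 0.71 ± 0.36. Their limma adjusted p-values with the block were 0.0566 and 0.0631. Trib3, Chac1 and Asns, targets of ATF4 and CHOP named after their values were seen, differed by 0.46 ± 0.27, 0.24 ± 0.22 and 0.18 ± 0.16. Sesn2 (-0.23 ± 0.23), Atf5 (-0.10 ± 0.28) and Ppp1r15a (-0.059 ± 0.23) of the same list had negative means. Of the 24 tested, 14 were higher in Cre within both numbers and 8 lower, against 32.8% and 30.2% of all genes.

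Inflammatory and acute-phase genes, which C/EBPβ and C/EBPδ drive in other tissues, had 15 of 16 names with a probe set and 8 tested, with a median of -0.12. Without the block 0 passed and 1 had an unadjusted p under 0.05. With the block 0 rose and 1 fell, against 3.25% and 0.984% of all genes. It was the pentraxin gene Ptx3, which read 1388.1 and 2532.7 in Vec and 483.6 and 409.7 in Cre (-2.01 ± 0.33; adjusted p = 0.319, and 0.000646 with the block). The interleukin-6 receptor genes Il6ra and Il6st differed by -0.39 ± 0.27 and -0.35 ± 0.25, and the feedback inhibitor Socs3 by 0.16 ± 0.43. Between the numbers 4 of the 8 fell in number 2 and 0 rose, against 8.26% and 8.46% of all genes: Il6 (-1.70), the chemokine gene Ccl2 (-2.51), the prostaglandin synthase gene Ptgs2 (-1.12) and Socs3 (-0.92). Ccl2 read 5018 and 1765.3 in Vec and 10335 and 913.1 in Cre, so Cre was the higher array in number 1 and the lower in number 2.

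**Figure D5:**
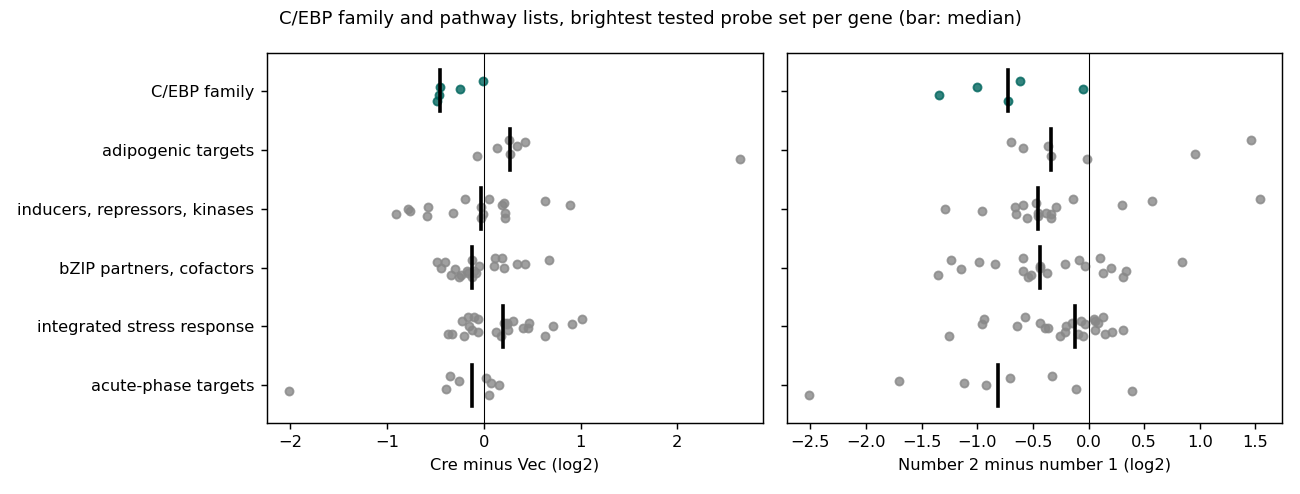
Cre minus Vec (left, log2) and number 2 minus number 1 (right, log2) for the brightest tested probe set of each gene in the C/EBP family and 5 related lists; each point is a gene, black bars are medians and vertical jitter carries no value. The family median is -0.45 on the left and -0.72 on the right, and the adipogenic targets sit at 0.27 and -0.34.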

How the data were processed

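Total RNA of 2 Vec and 2 Cre samples was hybridized to Affymetrix arrays. The authors deposited 1 linear signal intensity per probe set and array, made with MAS5 per the submitters' processing notes; which version and settings were used is not stated in these notes. Trimmed means were equal in all arrays, so each had been scaled to a common target. Array scaling and probe affinity limit comparisons between probe sets.

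Leaving out 64 controls, intensities were quantile normalized and taken as log2(signal + 16). Probe sets at or above the 50th percentile of the mean were tested (22519) in limma 3.58.1 under R 4.3.3 (lmFit, then eBayes with the trend option), with Benjamini-Hochberg adjustment over all of them and a threshold of 0.05. Of 45037 probe sets, 34945 had 1 symbol, 932 several and 9160 none; 34741 matched RefSeq GRCm38.p6 by gene ID. The brightest probe set stood for a gene.

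The main model had no replicate block, and the other took the number as a block (1 residual degree of freedom). Deviations of same-numbered arrays correlated at 0.603 over probe sets, and arrays of 1 number shared their sex-linked transcripts. On that ground, from the data and not the labels, the other model treated the arrays as paired by number. Its values are given for many genes but not for all. Each ± beside a Cre difference is an SE without the block, and that SE also holds the difference between the numbers. The script was tested on simulated data with independent arrays, no difference between the numbers and no quantile normalization. That test thus does not cover the pairing seen here.

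Members, lists and tests were chosen with earlier results of these data known. Named were all family probe sets, and per list up to 4 genes with the smallest p in the main model. Also named were Ehmt2, Pparg and Fabp4, cell type markers, and the 3 nearest profiles of each member. Alternatives were other pseudocounts, filters, scalings and variance models, the block, other probe sets and leaving out each array.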

Additional observations from a re-analysis of the deposited data

How the results depend on the processing

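Over all probe sets, 2 passed without the replicate block, and the count was 16 with median centring, 1 with the filter at the 75th percentile and with a pseudocount of 1, and 0 without the filter (limma; 2127 at an unadjusted p under 0.05) and without the trend (1020). With the block it was 708 (516 higher and 192 lower, against 375 and 291 after median centring), then 980 under the authors' scaling, 666 with median centring, 84 without the filter, 581 with a pseudocount of 64 and 709 with a pseudocount of 1. Leaving out 1 array, the lone array of a group being assumed to vary like the others, gave 6 to 27. The family count of 0 became 1 under the authors' scaling with the block (Cebpb, -0.45) and stayed 0 in every other setting, leaving out an array included. The differences on leaving out an array ran from -1.01 to -0.0031 for Cebpa, -0.97 to 0.077 for Cebpb, -1.19 to 0.27 for Cebpd, -0.36 to 0.33 for Cebpg and -0.38 to -0.12 for Ddit3. The sign turned without Vec-1 (0.077 for Cebpb, 0.27 for Cebpd and for Cebpg) and without Cre-2 (0.025, 0.14 and 0.33), where the numbers are unbalanced. It also turned for Cebpg in probe set 1451639_at (0.11). Within number 1 median centring moved Cebpb to -0.65 and Cebpg to -0.15. Between the numbers, Cebpa passed under the authors' scaling (-1.07), Cebpg missed with median centring (-0.25) and without the filter (-0.62), and median centring turned Ddit3 to 0.33. The family order of mean signals was the same after quantile normalization. Cebpa was not tested with the 75th percentile filter. No detection calls were used, so the signal over background of dim probe sets (Cebpa, 1456605_at, 1425261_at, 1443897_at) is unknown.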

Other observations

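Tribbles pseudokinases, of which TRIB1 and TRIB2 promote the degradation of C/EBPα protein, were measured beside the family and are named here after their values were seen. Trib2 read 1301.3 and 738.3 in Vec and 1061.3 and 428.2 in Cre, with differences of -0.26 and -0.72 within numbers 1 and 2 (-0.49 ± 0.46; limma adjusted p = 0.999, and 0.203 with the block). It was low in number 2, as Cebpb and Cebpd were (-0.98; adjusted p = 0.00625). Trib1 read 243.9 and 152.2 in Vec and 222.6 and 104.5 in Cre (-0.34 ± 0.33; adjusted p = 0.999), whereas Trib3 was higher in Cre within both numbers (0.56 and 0.36). Cebpzos, the opposite-strand neighbour of Cebpz, read 938.7 and 1245.4 in Vec and 907.3 and 1168.5 in Cre, with differences of -0.015 and -0.042, and its value says nothing on Cebpz itself.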
